A study of Oryza sativa with 12 samples.

Results

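The MIKC-type MADS-box genes of rice were followed in the pedicel of an easily shattering and a nonshattering cultivar. They were picked by locus identifier, and all 34 of them were found among the 35851 genes measured. By class they comprise 4 FUL-like, 5 SEP, 2 AGL6, 3 B, 2 C, 2 D, 2 B sister, 3 SVP, 2 SOC1 and 4 AGL17 genes, 1 AGL12 gene and 4 loci for which no name was matched. Classes and OsMADS names follow the published nomenclature of rice and were used for the 30 loci for which the RefSeq gene table lists a gene of that name on the chromosome given in the locus identifier (Os03 for chromosome 3, and so on). On all 9 chromosomes with at least 2 named members, the loci and the RefSeq genes ran in the same order. The other 4 loci are given by their identifiers, with no class or role.

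The libraries hold mRNA of the abscission zone (AZ), a short piece of the pedicel where the grain is shed, and of the nonabscission zone (NAZ), the remaining pedicel. W517 is labelled as easy shattering and DZ129 as loss of shattering, both with a wild-type genotype, and all tissue was taken on Day 10 after flowering by the labels. The 4 groups, W517AZ, W517NAZ, DZ129AZ and DZ129NAZ, have 3 libraries each. The labels do not say whether the libraries of a group came from separate plants, so that the p-values measure the spread between these libraries only.

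MIKC proteins are transcription factors built of a DNA-binding MADS domain, an intervening domain, a keratin-like domain and a variable C-terminal end. They bind CArG boxes in DNA as dimers and larger complexes, and the combination of classes sets the identity of the organs of a flower: B genes act in lodicules and stamens, C genes in stamens and carpels, D genes in the ovule, and SEP proteins join the others in complexes. FUL-like, SOC1 and SVP genes are better known for the floral transition and for the identity of inflorescence and spikelet meristems, and AGL17-like genes for roots, tillering and stress responses.

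Levels are FPKM, fragments scaled to gene length and to the fragments counted on genes in the library, so that genes can be compared with each other. Differences are log2 fold changes of FPKM + 0.1, given with their SE, and adjusted p-values come from limma with Benjamini-Hochberg adjustment over the 23951 genes tested. A differentially expressed gene (DEG) had an adjusted p below 0.05 and more than a 2-fold change. Tests were possible for 32 of the 34 members. The 2 others had next to no reads: OsMADS20 (LOC_Os12g31748, FUL-like) had 1 read in all 12 libraries together, and OsMADS25 (LOC_Os04g23910, AGL17-like) had at most 2 reads in any library. The libraries held 17119083 to 20892377 reads on genes. On these values, 63.1% of the DEGs between W517AZ and W517NAZ were higher in AZ (49.2% after quantile normalization), and 64.9% (50.5%) of those between DZ129AZ and DZ129NAZ. Of the DEGs between cultivars, W517 was higher for 39.3% (51.8%) in AZ and for 36.2% (52.2%) in NAZ. Between W517AZ and W517NAZ, all genes had a median log2 fold change of 0.13, and of -0.04 after quantile normalization.

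**Figure D1:**
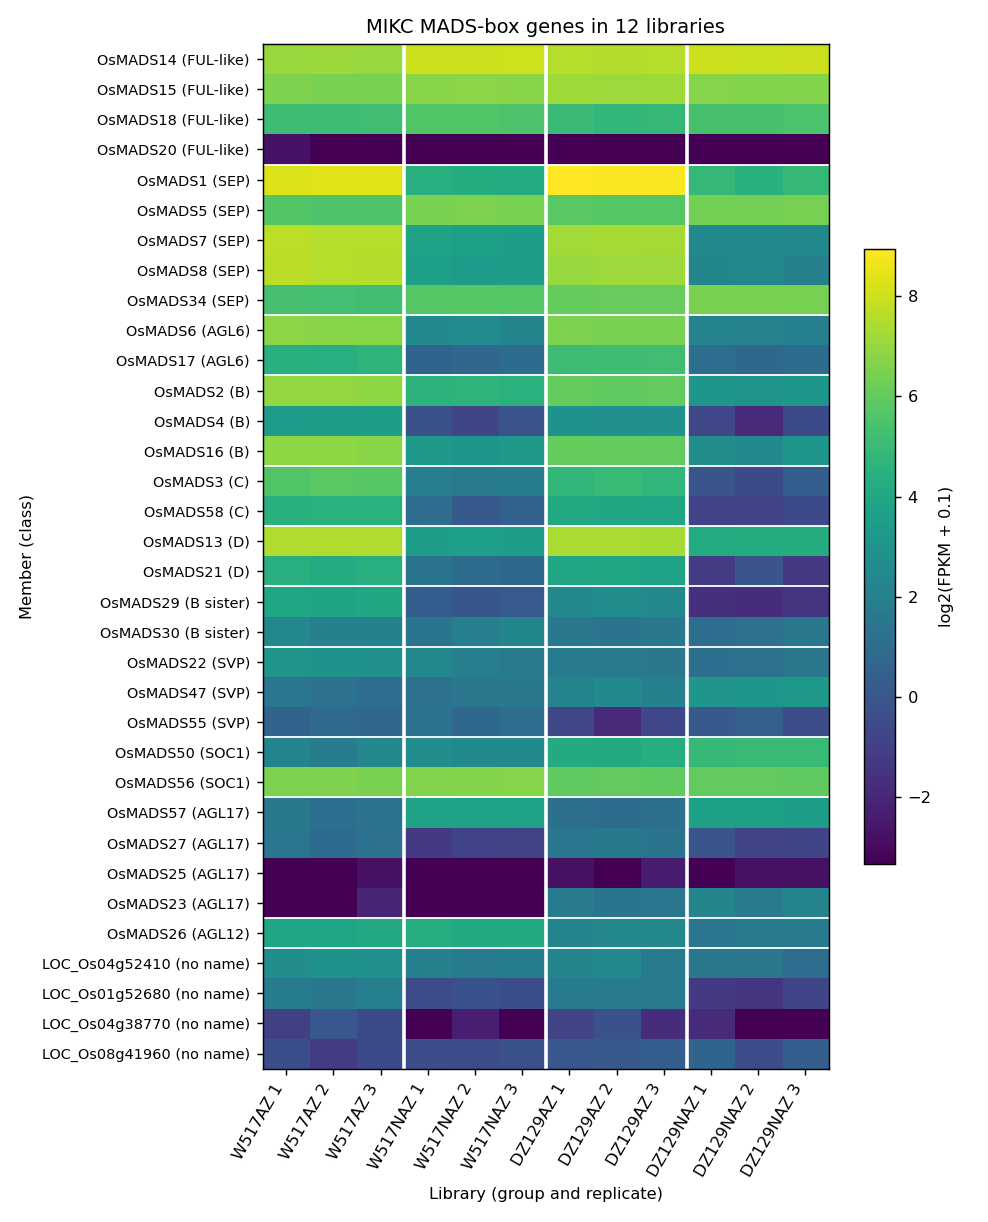
Levels of the 34 members (rows, with their class) in the 12 libraries (columns), as log2(FPKM + 0.1). In both cultivars the rows from OsMADS6 to OsMADS29, and OsMADS1, OsMADS7 and OsMADS8, are brighter in the AZ libraries than in the NAZ libraries, and OsMADS57 is darker.

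Which members differed between the abscission zone and the rest of the pedicel was asked first. The members as a whole were more abundant in AZ. Their FPKM summed to 1870 ± 19.9 in W517AZ and 825 ± 2.69 in W517NAZ, and to 1851 ± 22.8 in DZ129AZ and 784 ± 12 in DZ129NAZ (SD, n = 3 each). In W517, 53.1% of the 32 members tested were DEGs, against 33.7% of all genes tested. Of these members 16 were higher in AZ, as were 21.3% of all genes, and 1 was lower, as were 12.4% of all genes. In DZ129, 56.2% of the members were DEGs, against 28.0% of all genes. Here 16 members were higher in AZ (18.2% of all genes) and 2 were lower (9.84% of all genes). All 3 AZ libraries lay above all 3 NAZ libraries for 18 members in W517 (43.4% of all genes) and for 19 in DZ129 (42.5% of all genes), and below them for 9 members in W517 (29.6% of all genes) and 9 in DZ129 (30.8% of all genes). The median log2 fold change of the members was 1.58 in W517 and 1.32 in DZ129, and that of all genes tested 0.13 and 0.09.

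All 9 members of the AGL6, B, C and D classes were DEGs higher in AZ in both cultivars. Their log2 fold changes lay between 2.31 and 4.32 in W517, and between 2.88 and 4.95 in DZ129. Together these 9 genes had 650 ± 5.86 FPKM in W517AZ and 59.6 ± 2.07 in W517NAZ, and 484 ± 8.21 FPKM in DZ129AZ and 43.0 ± 2.25 in DZ129NAZ (SD, n = 3 each). The SEP genes were split, with 3 of 5 among the DEGs higher in AZ, and so were the B sister genes, with 1 of 2. No FUL-like, SOC1, SVP or AGL12 gene was a DEG higher in AZ in either cultivar.

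**Figure D2:**
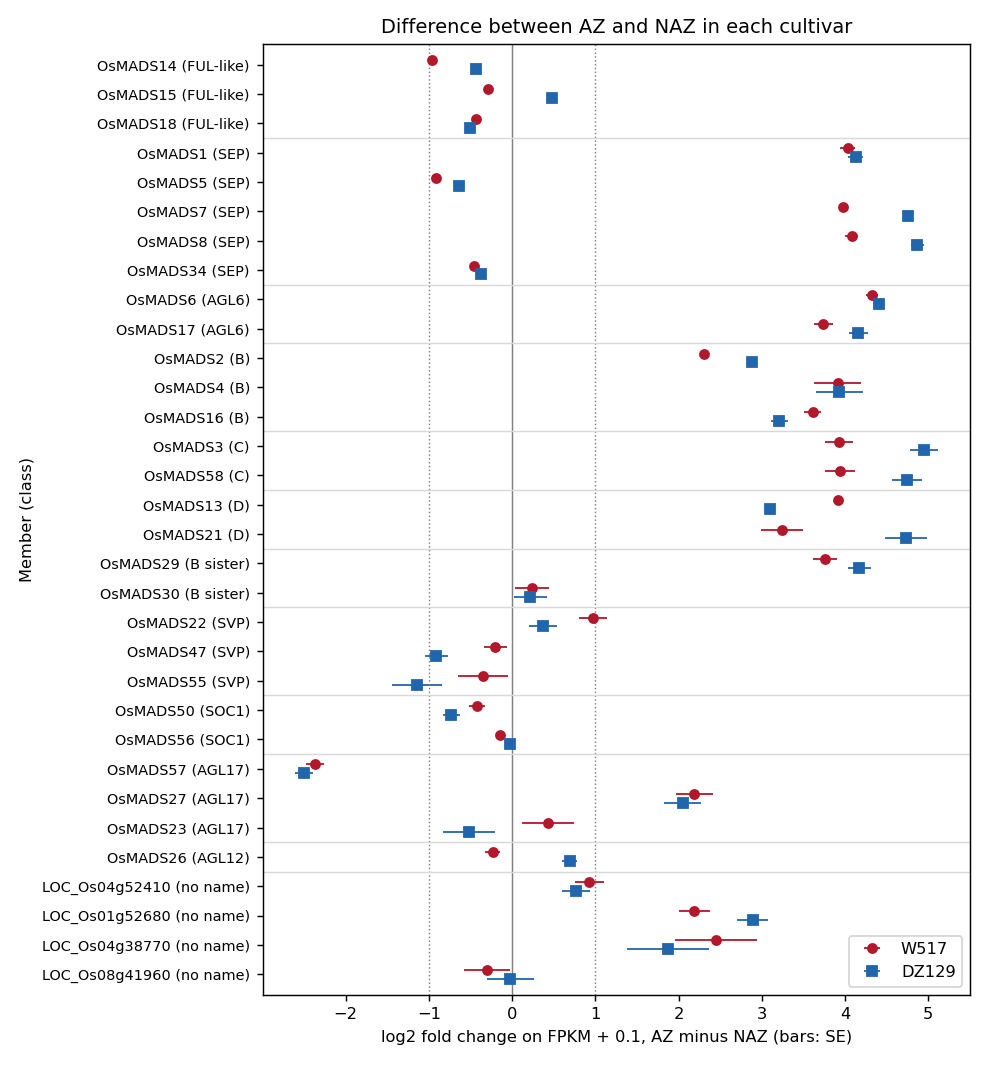
Log2 fold change between AZ and NAZ (horizontal axis, AZ minus NAZ, on FPKM + 0.1) of the 32 members tested, in W517 (circles) and in DZ129 (squares). Bars are SE, and dotted lines mark a 2-fold change. The AGL6, B, C and D genes lie between 2.31 and 4.95, and OsMADS57 lies at -2.37 in W517 and -2.50 in DZ129.

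The SEP proteins are the partners through which the other floral classes form complexes. OsMADS1 (LOC_Os03g11614), which sets the identity of lemma and palea, had 315, 322 and 325 FPKM in W517AZ, against 20.7, 19.5 and 18.5 FPKM in W517NAZ. In DZ129AZ it had 492, 462 and 457 FPKM, against 29.0, 22.1 and 30.1 FPKM in DZ129NAZ. Every AZ library was far above every NAZ library, and OsMADS1 was the most abundant member in both AZ groups, with 17.1% of the summed FPKM of the members in W517AZ and 25.4% in DZ129AZ. The log2 fold change was 4.03 ± 0.09 in W517 (adjusted p = 1.6e-13) and 4.13 ± 0.09 in DZ129 (adjusted p = 1.9e-13). OsMADS7 (LOC_Os08g41950) and OsMADS8 (LOC_Os09g32948), which act together in the specification of floral organs, followed. OsMADS7 had 208, 191 and 192 FPKM in W517AZ, against 13.2, 12.3 and 11.7 FPKM in W517NAZ, and 151, 160 and 157 FPKM in DZ129AZ, against 5.62, 5.81 and 5.48 FPKM in DZ129NAZ. OsMADS8 had 201, 194 and 186 FPKM in W517AZ, against 12.1, 10.6 and 11.2 FPKM in W517NAZ, and 132, 141 and 140 FPKM in DZ129AZ, against 4.78, 5.20 and 3.96 FPKM in DZ129NAZ. The AZ and NAZ libraries of these genes did not overlap. For OsMADS7 the log2 fold change was 3.98 ± 0.05 in W517 (adjusted p = 2.4e-15) and 4.76 ± 0.05 in DZ129 (adjusted p = 1.8e-15). For OsMADS8 it was 4.08 ± 0.08 (adjusted p = 6.7e-14) and 4.87 ± 0.08 (adjusted p = 2.8e-14).

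The remaining SEP genes did not share this pattern. OsMADS5 (LOC_Os06g06750), a SEP gene close to OsMADS1, ranged from 47.3 to 50.2 FPKM in W517AZ and from 90.0 to 92.2 FPKM in W517NAZ, and from 52.3 to 55.8 FPKM in DZ129AZ and from 82.3 to 84.6 FPKM in DZ129NAZ. OsMADS34 (LOC_Os03g54170), also called PAP2, which acts in the inflorescence and in the sterile lemmas, ranged from 36.4 to 40.6 FPKM in W517AZ and from 52.2 to 53.8 FPKM in W517NAZ, and from 65.7 to 68.5 FPKM in DZ129AZ and from 86.0 to 88.7 FPKM in DZ129NAZ. Both were lower in AZ by less than 2-fold, with log2 fold changes from -0.91 to -0.37 and adjusted p of at most 1.6e-06. After median-ratio scaling of the libraries, OsMADS5 was just past the 2-fold limit in W517, at -1.03.

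In the AGL6 class, OsMADS6 (LOC_Os02g45770), which acts in palea and floral meristem, was the more abundant gene. OsMADS6 had 112, 109 and 108 FPKM in W517AZ, against 5.68, 5.88 and 4.70 FPKM in W517NAZ, and 92.5, 89.2 and 86.9 FPKM in DZ129AZ, against 4.35, 4.26 and 3.80 FPKM in DZ129NAZ. OsMADS17 (LOC_Os04g49150), its paralog, had 22.3, 21.2 and 25.3 FPKM in W517AZ, against 1.45, 1.53 and 1.90 FPKM in W517NAZ, and 33.7, 34.6 and 36.7 FPKM in DZ129AZ, against 2.08, 1.63 and 1.92 FPKM in DZ129NAZ. No AZ library of either gene reached down to a NAZ library. The log2 fold change of OsMADS6 was 4.32 ± 0.07 in W517 (adjusted p = 2.2e-14) and 4.41 ± 0.07 in DZ129 (adjusted p = 3.0e-14). That of OsMADS17 was 3.74 ± 0.11 (adjusted p = 2.9e-12) and 4.16 ± 0.11 (adjusted p = 1.6e-12).

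B-class genes set the identity of lodicules and stamens. OsMADS2 (LOC_Os01g66030), a PISTILLATA-like gene needed in lodicules, had 124, 122 and 116 FPKM in W517AZ, against 24.6, 24.9 and 22.8 FPKM in W517NAZ, and 65.3, 62.4 and 64.3 FPKM in DZ129AZ, against 8.67, 8.18 and 9.03 FPKM in DZ129NAZ. OsMADS4 (LOC_Os05g34940), the other PISTILLATA-like gene, had 10.8, 11.6 and 11.6 FPKM in W517AZ, against 0.714, 0.489 and 0.824 FPKM in W517NAZ, and 7.40, 7.21 and 7.27 FPKM in DZ129AZ, against 0.515, 0.174 and 0.576 FPKM in DZ129NAZ. OsMADS16 (LOC_Os06g49840), the APETALA3-like partner of both, had 115, 117 and 109 FPKM in W517AZ, against 9.67, 8.65 and 9.50 FPKM in W517NAZ, and 65.1, 65.5 and 64.0 FPKM in DZ129AZ, against 6.51, 5.84 and 8.62 FPKM in DZ129NAZ. The AZ libraries of all 3 genes were above the NAZ libraries of the same cultivar. The W517AZ libraries were also above the DZ129AZ libraries, as for 31.9% of all genes tested, but within 2-fold. The log2 fold change between these groups was 0.91 ± 0.05 for OsMADS2, 0.81 ± 0.10 for OsMADS16 and 0.63 ± 0.28 for OsMADS4, which did not pass (adjusted p = 0.058). OsMADS2 had the smallest tissue difference of the class, with log2 fold changes of 2.31 ± 0.05 in W517 (adjusted p = 8.4e-14) and 2.88 ± 0.05 in DZ129 (adjusted p = 2.6e-14). OsMADS16 had 3.61 ± 0.10 (adjusted p = 1.9e-12) and 3.21 ± 0.10 (adjusted p = 8.6e-12), and OsMADS4 had 3.91 ± 0.28 (adjusted p = 2.2e-08) and 3.93 ± 0.28 (adjusted p = 2.6e-08).

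C-class genes act in stamens, carpels and the arrest of the floral meristem. OsMADS3 (LOC_Os01g10504), better known for stamens, had 49.4, 55.4 and 53.9 FPKM in W517AZ, against 3.64, 3.12 and 3.40 FPKM in W517NAZ, and 27.8, 31.0 and 26.8 FPKM in DZ129AZ, against 0.856, 0.564 and 1.15 FPKM in DZ129NAZ. OsMADS58 (LOC_Os05g11414), better known for the determinacy of the floral meristem, had 21.8, 22.8 and 23.0 FPKM in W517AZ, against 1.97, 1.0 and 1.32 FPKM in W517NAZ, and 17.3, 15.8 and 15.2 FPKM in DZ129AZ, against 0.450, 0.478 and 0.577 FPKM in DZ129NAZ. The order of the groups was W517AZ, DZ129AZ, W517NAZ and DZ129NAZ for both genes, with no overlap between neighbours. OsMADS3 had a log2 fold change between tissues of 3.93 ± 0.17 in W517 (adjusted p = 1.1e-10) and 4.95 ± 0.17 in DZ129 (adjusted p = 1.5e-11). OsMADS58 had 3.94 ± 0.18 in W517 (adjusted p = 1.9e-10) and 4.75 ± 0.18 in DZ129 (adjusted p = 3.9e-11).

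D-class genes act in the ovule. OsMADS13 (LOC_Os12g10540), the ovule identity gene of rice, had 176, 178 and 176 FPKM in W517AZ, against 11.4, 12 and 11.4 FPKM in W517NAZ, and 166, 166 and 160 FPKM in DZ129AZ, against 18.8, 19.0 and 19.4 FPKM in DZ129NAZ. OsMADS21 (LOC_Os01g66290), the second gene of the class, had 20.4, 18.6 and 20.7 FPKM in W517AZ, against 2.54, 1.94 and 1.67 FPKM in W517NAZ, and 14.9, 16.2 and 13.5 FPKM in DZ129AZ, against 0.348, 0.839 and 0.324 FPKM in DZ129NAZ. OsMADS13 was thus among the 4 most abundant members in both AZ groups. Its log2 fold change was 3.92 ± 0.03 in W517 (adjusted p = 1.5e-16) and 3.10 ± 0.03 in DZ129 (adjusted p = 1.8e-15), and that of OsMADS21 was 3.24 ± 0.25 (adjusted p = 4.5e-08) and 4.73 ± 0.25 (adjusted p = 1.1e-09).

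The B sister genes act in the ovule and the young seed. OsMADS29 (LOC_Os02g07430), known for the breakdown of maternal tissue in the developing seed, had 15.0, 14.4 and 16 FPKM in W517AZ, against 1.15, 0.879 and 1.06 FPKM in W517NAZ, and 5.38, 6.29 and 5.42 FPKM in DZ129AZ, against 0.217, 0.192 and 0.259 FPKM in DZ129NAZ. None of the 4 groups overlapped, and the log2 fold change between tissues was 3.76 ± 0.14 in W517 (adjusted p = 1.9e-11) and 4.17 ± 0.14 in DZ129 (adjusted p = 9.9e-12). OsMADS30 (LOC_Os06g45650), a divergent gene of the group, ranged from 2.05 to 4.97 FPKM over the 12 libraries, and its AZ and NAZ libraries overlapped in both cultivars (adjusted p = 0.29 in W517 and 0.35 in DZ129).

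Markers of grain and of other tissues also differed between AZ and NAZ, and not all in the same direction. Of 15 endosperm genes listed, those without a matched name were measured but left out. The 8 that could be named included the glutelins GluA1, GluA2 and GluA3 and the starch synthase Wx. Their summed level ranged from 20704 to 20991 FPKM in W517AZ and from 2246 to 2628 FPKM in W517NAZ, and from 2429 to 2868 FPKM in DZ129AZ and from 613 to 693 FPKM in DZ129NAZ, and none of the 8 was at 0 in a whole group. DL, a gene of the carpel and the leaf midrib, had 0.867 to 1.75 FPKM in W517AZ and 0 to 0.217 FPKM in W517NAZ, and 3.02 to 4.95 FPKM in DZ129AZ and 0 to 0.0937 FPKM in DZ129NAZ. The part of tissue of the grain or spikelet in the AZ libraries was not tested. In libraries of whole tissue pieces, fewer cells of a type and less RNA per cell cannot be told apart. The 3 cellulose synthase genes of the secondary wall summed to 221 to 241 FPKM in W517AZ and 10.3 to 11.8 FPKM in W517NAZ, and to 241 to 249 FPKM in DZ129AZ and 14.7 to 18.9 FPKM in DZ129NAZ. The 3 named green-tissue genes summed to 651 to 704 FPKM in W517AZ and 2238 to 2344 FPKM in W517NAZ, and to 784 to 886 FPKM in DZ129AZ and 1355 to 1412 FPKM in DZ129NAZ. Of 5 abscission zone genes listed, 2 could be named, and the others were measured but left out. SHAT1, an APETALA2-type gene of the abscission zone, had 13.3 ± 0.264 FPKM in W517AZ and 7.18 ± 0.339 in W517NAZ, and 19.3 ± 0.0750 FPKM in DZ129AZ and 14.4 ± 1.27 in DZ129NAZ (SD, n = 3 each). OSH15, a KNOX gene, had 74.8 ± 6.27 FPKM in W517AZ and 132 ± 4.32 in W517NAZ, and 82.7 ± 1.09 FPKM in DZ129AZ and 123 ± 0.866 in DZ129NAZ. Neither of the 2 passed the 2-fold limit between tissues in either cultivar.

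The classes made up different parts of the summed FPKM in the 2 tissues. FUL-like genes held 14.0% of the members' FPKM in W517AZ and 50.9% in W517NAZ, and 19.6% in DZ129AZ and 51.0% in DZ129NAZ. SEP genes held 42.7% in W517AZ and 22.7% in W517NAZ, and 47.8% in DZ129AZ and 26.6% in DZ129NAZ. The AGL6, B, C and D classes together held 34.8% in W517AZ and 7.22% in W517NAZ, and 26.2% in DZ129AZ and 5.48% in DZ129NAZ. SOC1 genes held 5.18% in W517AZ and 13.1% in W517NAZ, and 4.35% in DZ129AZ and 12% in DZ129NAZ. A share also depends on the level of the other classes, and the summed FPKM of these 2 classes differed less. FUL-like genes summed to 261 FPKM in W517AZ and 420 in W517NAZ, and to 363 in DZ129AZ and 400 in DZ129NAZ. SOC1 genes summed to 96.8 FPKM in W517AZ and 108 in W517NAZ, and to 80.4 in DZ129AZ and 93.7 in DZ129NAZ.

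**Figure D3:**
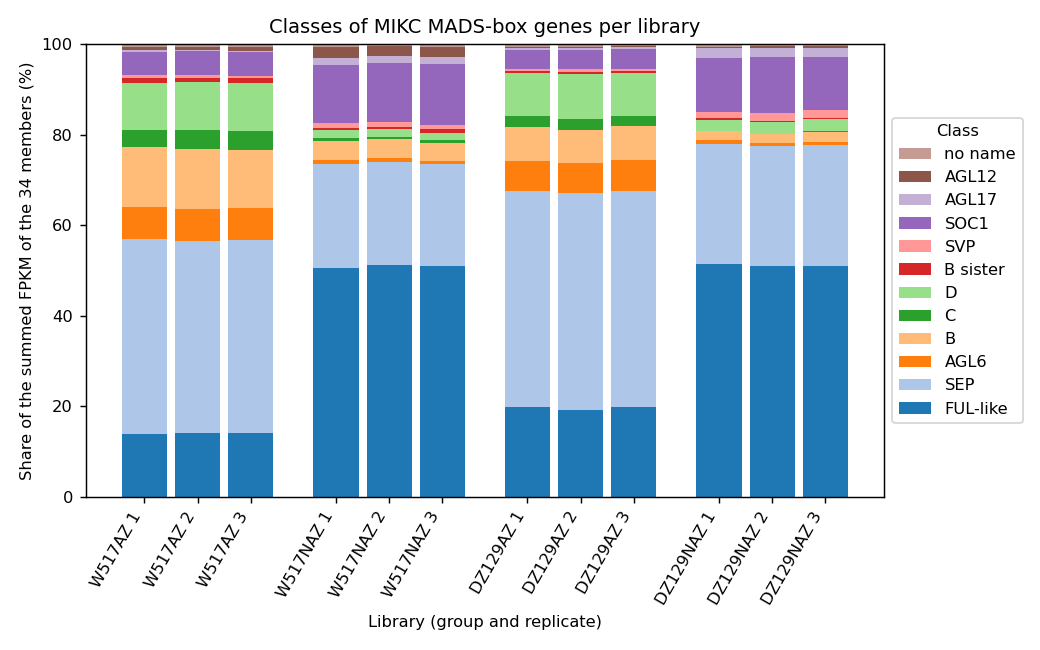
Share of the summed FPKM of the 34 members (vertical axis, percent) held by each class in each of the 12 libraries. The FUL-like share is 14.0% in W517AZ and 50.9% in W517NAZ, and 19.6% in DZ129AZ and 51.0% in DZ129NAZ, and the SEP, AGL6, B, C and D shares are larger in AZ.

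The FUL-like genes, which set the identity of inflorescence and spikelet meristems downstream of florigen, were abundant in all 4 groups except for OsMADS20. OsMADS14 (LOC_Os03g54160) was the most abundant member in both NAZ groups, with 259 to 264 FPKM in W517NAZ and 247 to 260 FPKM in DZ129NAZ. It had 132 to 138 FPKM in W517AZ and 186 to 190 FPKM in DZ129AZ, and its log2 fold change between AZ and NAZ, -0.96 ± 0.03 in W517 (adjusted p = 2.5e-12) and -0.43 ± 0.03 in DZ129 (adjusted p = 1.2e-08), stayed under the 2-fold limit. In W517 it passed that limit after median-ratio scaling (-1.08). OsMADS15 (LOC_Os07g01820) ranged from 89.0 to 94.2 FPKM in W517AZ and from 108 to 114 FPKM in W517NAZ, and from 141 to 147 FPKM in DZ129AZ and from 102 to 105 FPKM in DZ129NAZ, so that AZ was below NAZ in W517 and above it in DZ129. OsMADS18 (LOC_Os07g41370) ranged from 28.1 to 49.4 FPKM over all libraries and was under the 2-fold limit in every comparison.

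Of the SOC1-like and SVP-like genes, OsMADS55 in DZ129 was the only DEG between tissues. OsMADS56 (LOC_Os10g39130), a SOC1-like gene that delays flowering under long days, ranged from 90.2 to 94.4 FPKM in W517AZ and from 98.8 to 105 FPKM in W517NAZ, and from 60.8 to 63.3 FPKM in DZ129AZ and from 61.8 to 64.5 FPKM in DZ129NAZ. OsMADS22 (LOC_Os02g52340), OsMADS47 (LOC_Os03g08754) and OsMADS55 (LOC_Os06g11330) are the SVP-like genes, which are known as negative regulators of brassinosteroid responses. OsMADS55 had 1.40, 1.74 and 1.53 FPKM in W517AZ, against 2.43, 1.67 and 1.97 FPKM in W517NAZ, and 0.506, 0.179 and 0.506 FPKM in DZ129AZ, against 0.957, 1.27 and 0.655 FPKM in DZ129NAZ. Its groups overlapped between tissues in W517, while in DZ129 its AZ libraries were below the NAZ libraries, with 2 to 6 reads per AZ library and 8 to 15 reads per NAZ library. The log2 fold change was -0.35 ± 0.30 in W517 (adjusted p = 0.32) and -1.14 ± 0.30 in DZ129 (adjusted p = 0.0044). The DZ129 call was lost without DZ129AZ replicate 2 (-0.77) or without DZ129NAZ replicate 2 (-0.93). Under the 2-fold limit, OsMADS47 was lower in AZ in DZ129 (-0.91 ± 0.14, adjusted p = 7.3e-05), and had -0.20 ± 0.14 in W517 (adjusted p = 0.22). In DZ129 it passed the limit after median-ratio scaling (-1.01), after quantile normalization (-1.17) and without DZ129AZ replicate 2 (-1.05). OsMADS50 was lower in AZ within 2-fold in W517 (-0.42 ± 0.10, adjusted p = 0.002) and in DZ129 (-0.73 ± 0.10, adjusted p = 2.1e-05).

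The AGL17-like genes went both ways. OsMADS57 (LOC_Os02g49840), which acts in tillering, was the only member that was a DEG lower in AZ in both cultivars. OsMADS57 had 2.96, 2.14 and 2.46 FPKM in W517AZ, against 13.3, 13.1 and 13.5 FPKM in W517NAZ, and 2.20, 1.90 and 2.20 FPKM in DZ129AZ, against 12.6, 12.4 and 11.8 FPKM in DZ129NAZ. All 6 AZ libraries were below all 6 NAZ libraries, and the log2 fold change was -2.37 ± 0.11 in W517 (adjusted p = 2.0e-10) and -2.50 ± 0.11 in DZ129 (adjusted p = 1.6e-10). OsMADS27 (LOC_Os02g36924), known for the response of roots to nitrate, had 2.67, 1.87 and 2.26 FPKM in W517AZ, against 0.323, 0.461 and 0.466 FPKM in W517NAZ, and 2.70, 2.98 and 2.52 FPKM in DZ129AZ, against 0.838, 0.468 and 0.498 FPKM in DZ129NAZ. It was a DEG higher in AZ in both cultivars, with log2 fold changes of 2.19 ± 0.22 in W517 (adjusted p = 7.3e-07) and 2.05 ± 0.22 in DZ129 (adjusted p = 1.7e-06).

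Among the 4 loci without a matched name, 2 were DEGs higher in AZ in both cultivars. LOC_Os01g52680 had 3.56, 2.91 and 3.80 FPKM in W517AZ, against 0.593, 0.752 and 0.665 FPKM in W517NAZ, and 3.25, 3.28 and 3.17 FPKM in DZ129AZ, against 0.324, 0.258 and 0.499 FPKM in DZ129NAZ. No library of AZ overlapped with NAZ, and its log2 fold change was 2.19 ± 0.19 in W517 (adjusted p = 2.1e-07) and 2.89 ± 0.19 in DZ129 (adjusted p = 1.4e-08). LOC_Os04g38770 had very few reads, 4, 9 and 6 in the W517AZ libraries, against 0, 1 and 0 in W517NAZ, and 5, 7 and 2 in DZ129AZ, against 2, 0 and 0 in DZ129NAZ. It had 0.399, 0.890 and 0.582 FPKM in W517AZ, against 0, 0.105 and 0 FPKM in W517NAZ, and 0.480, 0.715 and 0.192 FPKM in DZ129AZ, against 0.182, 0 and 0 FPKM in DZ129NAZ. Relative to total reads, W517AZ had 17.4 times the reads of W517NAZ (95% exact counting interval 2.77 to 723) and DZ129AZ had 7.34 times those of DZ129NAZ (1.69 to 66.5). The intervals cover counting error only, and both DEG calls were lost with a pseudocount of 1 (log2 fold change 0.64 in W517 and 0.45 in DZ129). LOC_Os04g52410 ranged from 1.99 to 7.40 FPKM and LOC_Os08g41960 from 0.354 to 1.46 FPKM over all libraries, and neither was a DEG in any comparison.

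Which members differed between the easily shattering W517 and DZ129 was asked within each tissue. In AZ, 18.8% of the 32 members were DEGs, against 27.1% of all genes tested, with 4 members higher in W517 (10.6% of all genes) and 2 lower (16.4% of all genes). In NAZ, 37.5% of the members were DEGs, against 27.7% of all genes, with 9 members higher in W517 (10.0% of all genes) and 3 lower (17.7% of all genes). All 3 W517 libraries lay above all 3 DZ129 libraries for 18 members in AZ (31.9% of all genes) and 19 in NAZ (32.7% of all genes), and below them for 10 members in AZ (41.6% of all genes) and 7 in NAZ (41.1% of all genes). Between the NAZ groups the median log2 fold change was 0.40 for the members and -0.07 for all genes tested. Between the AZ groups these medians were 0.32 and -0.07.

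**Figure D4:**
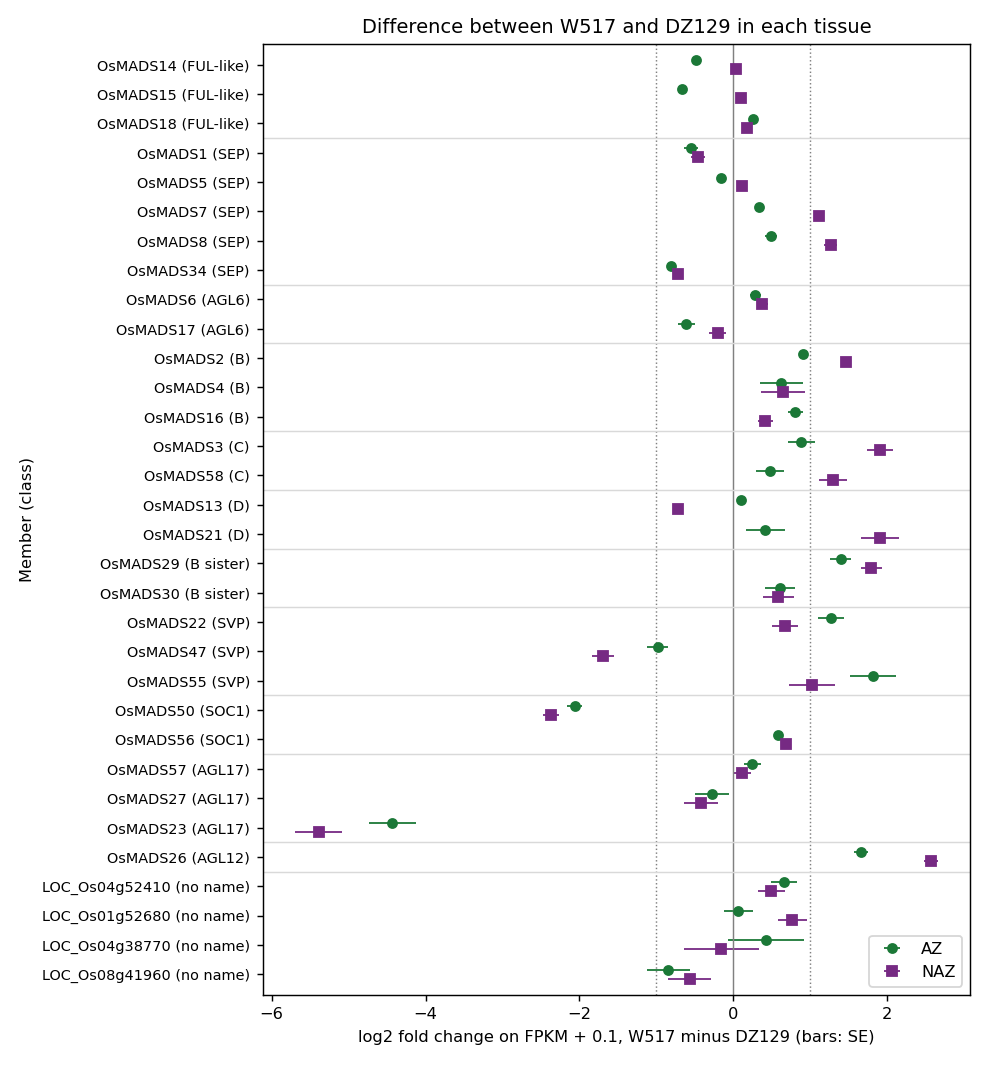
Log2 fold change between cultivars (horizontal axis, W517 minus DZ129, on FPKM + 0.1) of the 32 members tested, in AZ (circles) and in NAZ (squares). Bars are SE, and dotted lines mark a 2-fold change. OsMADS23 and OsMADS50 lie far to the left in both tissues, and OsMADS26 lies to the right, at 1.66 in AZ and 2.58 in NAZ.

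The largest difference between cultivars was that of OsMADS23 (LOC_Os08g33488), an AGL17-like gene known for drought and abscisic acid responses. It had 0, 0 and 2 reads in the W517AZ libraries and no read in the W517NAZ libraries, which allows up to 3 reads per library, against 34 to 43 reads per library in DZ129AZ and 44 to 69 in DZ129NAZ. In FPKM these were 0, 0 and 0.147 in W517AZ, against 3.13, 2.63 and 2.69 in DZ129AZ, and 0 in each W517NAZ library, against 4.75, 3.22 and 4.45 in DZ129NAZ. The gene was thus nearly unread in W517 and read in every DZ129 library. Relative to total reads, DZ129AZ had 56.7 times the reads of W517AZ (95% exact counting interval 15.3 to 474), and OsMADS23 was at least 16.4-fold lower in W517NAZ than in DZ129NAZ, with a floor of 3 reads per library. The adjusted p was 2.5e-08 in AZ and 3.0e-09 in NAZ. Reads of both cultivars were mapped to 1 reference genome, and differences in sequence between the cultivars at this locus were not tested.

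OsMADS50 (LOC_Os03g03070), the SOC1-like gene that promotes flowering under long days, had 4.57, 3.59 and 5.0 FPKM in W517AZ, against 17.7, 17.6 and 19.9 FPKM in DZ129AZ. In NAZ it had 6.26, 5.65 and 5.63 FPKM in W517, against 30.0, 31.1 and 30.5 FPKM in DZ129. All W517 libraries were below all DZ129 libraries, by a log2 fold change of -2.06 ± 0.10 in AZ (adjusted p = 5.9e-10) and -2.37 ± 0.10 in NAZ (adjusted p = 1.3e-10). OsMADS56, which opposes OsMADS50 in flowering time, went the other way within 2-fold (0.58 ± 0.03 in AZ and 0.69 ± 0.03 in NAZ). OsMADS26 (LOC_Os08g02070), an AGL12-like gene known for stress responses, had 15.4, 15.0 and 16.8 FPKM in W517AZ, against 4.48, 4.94 and 5.28 FPKM in DZ129AZ. In NAZ it had 19.6, 17.5 and 18.2 FPKM in W517, against 2.68, 3.14 and 3.20 FPKM in DZ129. The cultivars were far apart in both tissues, with log2 fold changes of 1.66 ± 0.09 in AZ (adjusted p = 1.3e-09) and 2.58 ± 0.09 in NAZ (adjusted p = 1.4e-11).

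**Figure D5:**
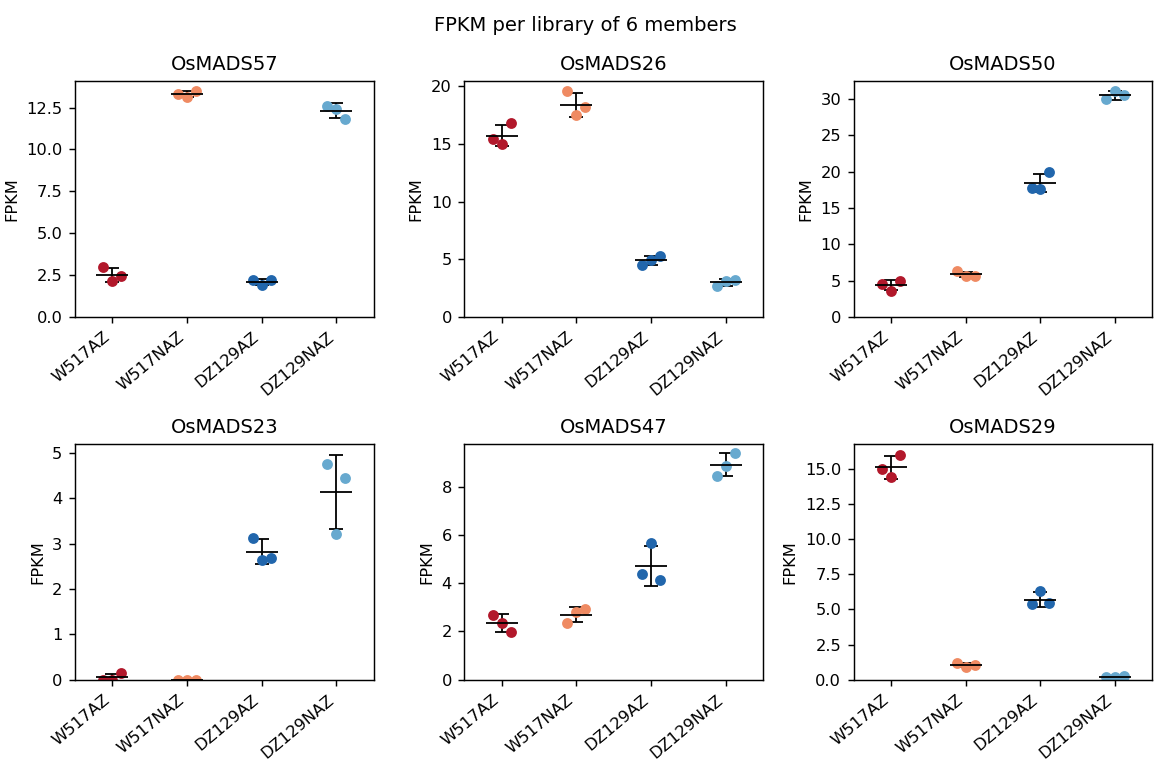
FPKM (vertical axes, each from 0) of 6 members in the 4 groups. Points are libraries, and bars are the mean and SD of 3 libraries. OsMADS57 differs between tissues in both cultivars, OsMADS26, OsMADS50 and OsMADS23 differ between cultivars in both tissues, OsMADS47 is highest in DZ129NAZ, and OsMADS29 is highest in W517AZ.

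The SVP-like genes differed between cultivars in opposite directions. OsMADS47 had 2.70, 2.36 and 1.96 FPKM in W517AZ, against 4.40, 5.68 and 4.12 FPKM in DZ129AZ, and 2.36, 2.81 and 2.92 FPKM in W517NAZ, against 8.46, 8.88 and 9.42 FPKM in DZ129NAZ. It was lower in W517 in both tissues without overlap, as a DEG in NAZ (-1.69 ± 0.14, adjusted p = 1.7e-07) and just under the 2-fold limit in AZ (-0.98 ± 0.14, adjusted p = 3.7e-05). OsMADS22 had 8.42, 7.78 and 7.27 FPKM in W517AZ, against 3.39, 3.37 and 2.78 FPKM in DZ129AZ, and 5.18, 3.69 and 3.19 FPKM in W517NAZ, against 2.11, 2.37 and 2.85 FPKM in DZ129NAZ. Its W517 libraries were above the DZ129 libraries in both tissues, as a DEG in AZ (1.28 ± 0.17, adjusted p = 1.3e-05) and within 2-fold in NAZ (0.68 ± 0.17, adjusted p = 0.0025). Between tissues, OsMADS22 was just under the 2-fold limit in W517 (0.97 ± 0.17, adjusted p = 1.4e-04). OsMADS55, whose values are given above, was a DEG higher in W517 in AZ (1.82 ± 0.30, adjusted p = 1.2e-04) and in NAZ (1.03 ± 0.30, adjusted p = 0.0081). The NAZ call was lost without W517NAZ replicate 1 (0.89) or DZ129NAZ replicate 3 (0.80).

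Of the SEP, AGL6, B, C, D and B sister members, only OsMADS29 was a DEG between cultivars in AZ, at 15.1 ± 0.808 FPKM in W517AZ against 5.70 ± 0.516 FPKM in DZ129AZ (SD, n = 3 each). Its log2 fold change was 1.40 ± 0.14 in AZ (adjusted p = 7.7e-07) and 1.80 ± 0.14 in NAZ (adjusted p = 5.1e-08), where it had 1.03 ± 0.136 FPKM in W517NAZ and 0.222 ± 0.0342 in DZ129NAZ. In the AZ libraries the 8 endosperm genes summed to 20870 ± 148 FPKM in W517 and 2673 ± 224 in DZ129. Of these 8 genes 7 were DEGs higher in W517AZ and 1, GluB2, was lower (42.0 FPKM in W517AZ and 150 FPKM in DZ129AZ, log2 fold change -1.82 ± 0.08, adjusted p = 1.7e-10), and their part in this result was not tested. In NAZ, the DEGs higher in W517 comprised OsMADS29, OsMADS55 and OsMADS26 and 6 of the genes that were higher in AZ: OsMADS7 (1.12 ± 0.05, adjusted p = 2.1e-10), OsMADS8 (1.27 ± 0.08, adjusted p = 8.0e-09), OsMADS2 (1.47 ± 0.05, adjusted p = 7.1e-12), OsMADS3 (1.91 ± 0.17, adjusted p = 2.5e-07), OsMADS58 (1.30 ± 0.18, adjusted p = 2.0e-05) and OsMADS21 (1.91 ± 0.25, adjusted p = 1.1e-05). All 3 W517NAZ libraries were above all 3 DZ129NAZ libraries for each of these 6 genes, as for 32.7% of all genes tested. The 6 were picked as DEGs of this comparison, so that the order of their libraries adds no support. OsMADS13 went the other way in NAZ, with 11.6 ± 0.338 FPKM in W517NAZ and 19.1 ± 0.288 in DZ129NAZ, within 2-fold (-0.72 ± 0.03, adjusted p = 2.1e-10). The same endosperm genes summed to 2424 ± 192 FPKM in W517NAZ and 655 ± 40.1 in DZ129NAZ, with 6 DEGs higher in W517NAZ and GluB2 lower (-2.91 ± 0.08, adjusted p = 1.7e-12). OsMADS1, the most abundant member in AZ, was lower in W517 in both tissues within 2-fold (-0.55 ± 0.09, adjusted p = 8.8e-05 in AZ, and -0.45 ± 0.09, adjusted p = 4.5e-04 in NAZ).

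Whether the tissue difference itself differed between cultivars was tested as an interaction: the log2 fold change between tissues in W517, minus the one in DZ129. It passed for 14 of the 32 members (43.8%), a share near the 43.4% of all genes tested, with 3 members positive and 11 negative, where 21.4% and 22.0% of all genes were. In size, 2 of them exceeded 1 on the log2 scale, while 13.6% of all genes tested both passed and exceeded 1. The 2 were OsMADS21 (-1.49 ± 0.35, adjusted p = 0.0037) and OsMADS3 (-1.02 ± 0.24, adjusted p = 0.0037), both with a larger tissue difference in DZ129. In DZ129NAZ these 2 genes had few reads, 10 to 25 per library for OsMADS21 and 18 to 38 for OsMADS3. For OsMADS21 the ratio of AZ to NAZ was 9.71 in W517 and 29.5 in DZ129, and for OsMADS3 it was 15.6 and 33.3. OsMADS13 had the opposite sign to OsMADS21, the other D-class gene (0.82 ± 0.04, adjusted p = 2.3e-08), with a ratio of 15.2 in W517 and 8.60 in DZ129. OsMADS16 (adjusted p = 0.045) and OsMADS17 (adjusted p = 0.049) were just past the threshold and lost it when single libraries were left out. OsMADS15 and OsMADS26 changed sign between cultivars, with AZ lower in W517 (-0.29 ± 0.03 and -0.23 ± 0.09) and higher in DZ129 (0.48 ± 0.03 and 0.69 ± 0.09), and interactions of -0.77 ± 0.05 (adjusted p = 5.5e-08) and -0.92 ± 0.12 (adjusted p = 5.7e-05).

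Of 17 other regulators of flowering listed beside the MADS-box genes, 6 could be named by the same rule and 3 were tested. Hd3a and DL were DEGs higher in AZ in both cultivars. Hd3a, a florigen gene, had 426 ± 5.84 FPKM in W517AZ and 37.1 ± 0.271 in W517NAZ, and 483 ± 18.2 FPKM in DZ129AZ and 43.0 ± 3.65 in DZ129NAZ (SD, n = 3 each). Its tissue difference was of the size of that of the floral organ genes, at 3.52 ± 0.05 in W517 (adjusted p = 6.2e-15) and 3.49 ± 0.05 in DZ129 (adjusted p = 1.1e-14). DL, whose levels are given above, was a DEG lower in W517AZ than in DZ129AZ (-1.52 ± 0.43, adjusted p = 0.0067). Of 5 further MADS-box genes, only OsMADS33 could be named, with 2.44 ± 0.367 FPKM in W517AZ and 0.448 ± 0.439 in W517NAZ, and 1.75 ± 0.265 FPKM in DZ129AZ and 0.685 ± 0.0701 in DZ129NAZ. It was a DEG higher in AZ in W517 (2.56 ± 0.46, adjusted p = 2.0e-04) and in DZ129 (1.23 ± 0.46, adjusted p = 0.029).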

How the data were processed

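Total RNA of AZ and NAZ was sequenced from stranded mRNA libraries on an Illumina HiSeq platform. By the submitters' processing notes and the methods, the authors trimmed reads with Trimmomatic, mapped them to MSU-RGAP 7.0 with HISAT2 and deposited FPKM from Cufflinks, with HTSeq for counting (versions and the treatment of reads that map to several loci are not given in the sources used here). From the deposited FPKM, whole reads could be recovered for 100% of 35851 genes (tolerance 0.002 reads) and gave depth and counting intervals. The 23951 genes that reached 0.5 FPKM in 3 or more libraries entered limma-trend (limma 3.58.1, R 4.3.3) as log2(FPKM + 0.1), in 1 model of the 12 libraries. The fit was also run on simulated data in which only well-read genes were changed, which does not cover members with few reads. Members of every class are accounted for; values per library are given for members that were DEGs in a comparison between groups, and other members by range. Members and lists were chosen with earlier results of these data known. No 2 libraries were duplicates (chi-square per degree of freedom 1.77 to 3.94). Alternatives were other pseudocounts, filters, scalings and models, voom on recovered reads and leaving out each library. The RefSeq gene table used for names is of another assembly, so no coordinates are printed. The result of 1 listed regulator is not reported here.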

Additional observations from a re-analysis of the deposited data

Results flagged for a closer look

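The tissue difference (AZ minus NAZ) differed between the cultivars for 14 of the 32 members tested by the interaction test of limma (adjusted p below 0.05). This share, 43.8%, was near the 43.4% of all genes tested. Negative values, a tissue difference lower in W517 than in DZ129, were -1.49 for OsMADS21, -1.02 for OsMADS3, -0.92 for OsMADS26, -0.82 for OsMADS58, -0.78 for OsMADS7, -0.78 for OsMADS8, -0.77 for OsMADS15, -0.56 for OsMADS2, -0.53 for OsMADS14, -0.41 for OsMADS17 and -0.27 for OsMADS5 on the log2 scale. Positive values were 0.82 for OsMADS13, 0.71 for OsMADS47 and 0.39 for OsMADS16. The calls of OsMADS17 and OsMADS16 were lost in 8 and 9 of 12 fits that left out a library.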

How the results depend on the processing

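The counts of members higher in AZ stayed at 15 to 17 in W517 and at 15 to 16 in DZ129 over all alternatives run, against 16 each. Members lower in W517AZ than in W517NAZ were 3 after median-ratio scaling and 2 after quantile normalization, against 1. Members lower in DZ129AZ than in DZ129NAZ were 1 with a pseudocount of 0.5 and 1 with a pseudocount of 1, 3 after median-ratio scaling, 3 after quantile normalization, and 1 to 2 when a library was left out, against 2. Members lower in W517AZ than in DZ129AZ were 2 to 4 when a library was left out (4 without W517AZ replicate 1), against 2. With a pseudocount of 1, DEGs among all genes were 4385 between DZ129AZ and DZ129NAZ (6712 with 0.1), 4214 between W517AZ and DZ129AZ (6480) and 4056 between W517NAZ and DZ129NAZ (6635). Members with a positive interaction were 5 with a pseudocount of 0.5 and 7 with a pseudocount of 1, against 3. Over the alternatives that left out no library, members with a negative interaction were 10 to 14, against 11. Interaction calls among all genes were 9933 to 11728 over these alternatives, against 10395. The interaction of OsMADS29 changed sign, at 0.54 with a pseudocount of 1 and -0.41 with 0.1, where it did not pass (adjusted p = 0.1). Its mean in DZ129NAZ, 0.222 FPKM, was under the pseudocount of 1, and the cause of the change was not tested. The interaction of OsMADS17 was lost under voom (adjusted p = 0.22) and in 8 of 12 fits that left out a library, and that of OsMADS16 under quantile normalization (adjusted p = 0.16) and in 9 of 12 such fits. The interaction of OsMADS58 was lost with a pseudocount of 0.5 (-0.44), and that of OsMADS47 after quantile normalization (0.45). In NAZ, members higher in W517 than in DZ129 were 6 to 12 over the alternatives that left out no library, against 9. They were 6 with a pseudocount of 1, where OsMADS58 (0.68), OsMADS29 (0.73) and OsMADS55 (0.63) fell under the 2-fold limit. Libraries with the same replicate number showed no shared deviation from their group means (correlations of deviations -0.0223 to 0.0181). This cannot show whether the samples were paired. A replicate block changed none of 160 member calls. Members under about 1 FPKM, such as LOC_Os04g38770 and, in DZ129, OsMADS55, rest on few reads, and their fold changes shrink with a larger pseudocount.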

Other observations

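Within classes, the balance between related members differed by group. OsMADS7 and OsMADS8 stayed near parity, with a ratio of OsMADS7 to OsMADS8 of 0.987 to 1.04 in W517AZ and 1.04 to 1.15 in W517NAZ, and of 1.12 to 1.14 in DZ129AZ and 1.12 to 1.38 in DZ129NAZ. The ratio of OsMADS14 to OsMADS15 was lower in AZ, at 1.40 to 1.55 in W517AZ and 2.28 to 2.40 in W517NAZ, and at 1.29 to 1.32 in DZ129AZ and 2.42 to 2.47 in DZ129NAZ. The SOC1-like ratio of OsMADS56 to OsMADS50 set the cultivars apart, with 18.1 to 26.3 in W517AZ and 3.06 to 3.59 in DZ129AZ, and 15.8 to 18.6 in W517NAZ and 2.03 to 2.11 in DZ129NAZ. OsMADS13 exceeded OsMADS21 by 8.49 to 9.52 times in W517AZ and 4.47 to 6.83 times in W517NAZ, and by 10.2 to 11.9 times in DZ129AZ and 22.6 to 59.8 times in DZ129NAZ, where OsMADS21 had 10 to 25 reads per library.

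Pairs of loci with consecutive identifiers were set side by side. OsMADS7 (LOC_Os08g41950) and LOC_Os08g41960 differed 311 to 540 times in FPKM in W517AZ and 16.3 to 20.5 times in W517NAZ, and 135 to 167 times in DZ129AZ and 3.84 to 9.61 times in DZ129NAZ. These ratios rest on few reads of LOC_Os08g41960. It had 8 to 15 reads per library in W517AZ, 13 to 15 in W517NAZ, 21 to 27 in DZ129AZ and 14 to 36 in DZ129NAZ. OsMADS14 and OsMADS34, also consecutive, had a ratio of 3.24 to 3.69 in W517AZ and 4.84 to 5.0 in W517NAZ, and of 2.72 to 2.89 in DZ129AZ and 2.86 to 2.95 in DZ129NAZ, both genes being lower in AZ in both cultivars. These pairs were chosen after their values were seen.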
